A study of Homo sapiens with 6 samples.

Results

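RNA polymerase II, the Mediator complex and a set of elongation factors were followed in the 786-O line, derived from a human clear cell renal carcinoma, with and without overexpression of OGT. The genes were taken from the deposited table by symbol: POLR2A to POLR2M, the MED genes, CDK8, CDK19, CCNC, TCEA1, SUPT4H1, SUPT5H, SUPT6H, ELL, ELL2 and AFF4. This gave 53 of 62703 rows: 13 polymerase subunit genes, 33 Mediator genes and 7 elongation factor genes. RNA sequencing of total RNA gave 6 libraries, 3 from control 786-O cells labelled wild type and 3 from 786-O cells labelled as overexpressing OGT. OGT, O-GlcNAc transferase, places single N-acetylglucosamine sugars on serines and threonines of nuclear and cytosolic proteins. How OGT was introduced, whether the cells were a clone and what the controls received were not given in the sources used here. No label ties replicates to separate cultures, and p-values therefore reflect the spread between these libraries alone, which may be technical.

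RNA polymerase II transcribes all nuclear protein-coding genes. Its largest subunit, encoded by POLR2A, carries a C-terminal tail of repeated heptads whose phosphorylation changes through the transcription cycle and which is a known substrate of OGT. Mediator bridges DNA-bound activators and the polymerase at the promoter: tail subunits contact activators, head and middle subunits contact the polymerase, MED14 holds these parts together, and a separable kinase module with CDK8 or CDK19 controls access of the polymerase. Elongation factors then help the polymerase through pauses and nucleosomes.

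Values are TPM, abundances corrected for transcript length and scaled to a common total, so levels of different genes can be compared, but read totals and thus counting precision are unknown. Each library summed to between 993935.5 and 996951.6 TPM. OGT transcript was 23.11, 22.57 and 23.62 TPM in the control libraries and 352.74, 352.92 and 270.87 TPM in the OGT libraries. Of 12 markers of renal epithelium and clear cell carcinoma 11 were at 1 TPM or more in every library, among them PAX8, VIM and KRT8, while CA9, a HIF target often high in this tumour type, reached at most 0.85 TPM. Of 12 markers of leukocytes, endothelium, fibroblasts and neurons 8 stayed below 1 TPM in every library, and among these the endothelial gene CDH5 was listed at 0 throughout. The summed level of these 12 was 2.38 to 18.20 TPM in control and 2.99 to 4.07 TPM in OGT libraries. The leukocyte gene PTPRC was 12.23 TPM in control replicate 1 and at most 0.07 TPM elsewhere. The endothelial gene PECAM1 was also highest in that library, at 4.22 TPM against at most 2.65 TPM elsewhere. In bulk RNA, fewer cells of a type and less RNA per cell cannot be told apart.

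Promoter sequence is shown for the genes that were called in the same direction under every processing alternative tried and for which a window was at hand: POLR2F, which fell, and MED1 and MED9, which rose. Each is the 250 bases before a RefSeq transcript start (GRCh38.p14), 5′ to 3′ on the gene's strand, with capitals marking the only match to any of 6 motifs searched on both strands. POLR2F lies at chr22:37953413-37953662 on the plus strand and its capitals are an NRF1 motif. MED1 lies at chr17:39451264-39451513 on the minus strand and its capitals are a CCAAT box. MED9 lies at chr17:17476750-17476999 on the plus strand and its capitals are the HIF core.
POLR2F: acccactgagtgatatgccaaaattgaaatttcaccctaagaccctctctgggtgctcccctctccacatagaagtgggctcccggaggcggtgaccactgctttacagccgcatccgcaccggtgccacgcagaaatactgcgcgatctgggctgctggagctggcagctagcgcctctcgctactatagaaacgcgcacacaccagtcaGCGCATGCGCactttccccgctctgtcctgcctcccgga
MED1: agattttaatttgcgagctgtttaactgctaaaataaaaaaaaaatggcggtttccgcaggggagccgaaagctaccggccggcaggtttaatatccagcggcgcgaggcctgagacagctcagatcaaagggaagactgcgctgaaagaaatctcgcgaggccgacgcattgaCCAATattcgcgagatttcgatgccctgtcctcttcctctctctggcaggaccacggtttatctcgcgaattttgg
MED9: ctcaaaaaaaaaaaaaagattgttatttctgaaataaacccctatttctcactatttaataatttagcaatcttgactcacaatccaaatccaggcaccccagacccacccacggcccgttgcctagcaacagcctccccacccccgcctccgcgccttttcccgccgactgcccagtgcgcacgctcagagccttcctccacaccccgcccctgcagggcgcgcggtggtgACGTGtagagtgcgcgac
RefSeq windows were matched for 39 of the 53 genes, 47 windows in all, with more than 1 window for 7 genes, and POLR2F is shown by the first of its 2. The NRF1 motif, spelled by the capitals of POLR2F and its own reverse complement, was in windows of 3 of the 39 genes (7.69%, against 2.39% of 9365 tested genes and 1.28% of all 27305 genes with a window). These 3 were POLR2F, POLR2H and MED18. The ETS motif CCGGAAG was in 8 (20.5%, against 19.8% and 10.2%), namely 2 of 17 genes that rose, 3 of 4 that fell and 3 of 17 that were not called. The CCAAT box, CCAAT, was in 10 (25.6%, against 41.7% and 37%), 0 of them among the 4 that fell. The HIF core ACGTG, which is also contained in the E-box CACGTG, was in 5 (12.8%, against 29.4% and 21.7%). The E-box itself was in 3 (7.69%, against 11.5% and 7.73%) and the TATA box, TATAAA, in 3 (7.69%, against 7.56% and 13%). A match is a description of these letters in this window. The shares were not tested.

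Of the 53 genes 52 were tested with limma on log2(TPM + 1) over all 12645 genes at 1 TPM or more in at least 3 libraries. With OGT overexpression 23 rose and 6 fell at a Benjamini-Hochberg adjusted p below 0.05. Among all tested genes 39.1% rose and 9.7% fell, so the 44.2% and 11.5% among these genes stood near the background. Their median log2 change was 0.39, against 0.30 for all tested genes. Groups did not overlap for 29 genes with OGT higher and 8 with OGT lower, against 46.2% and 12.4% of all tested genes. MED7 and MED13 passed the filter only through the OGT libraries, with every control below 1 TPM. Without such genes 22 of 50 members rose and 6 fell, with a median of 0.36 (0.29 for all). These 22 still hold MED23, CDK8 and ELL2, which had fewer than 3 controls at 1 TPM and also needed OGT libraries to pass. The gene not tested, MED12L, a paralog of MED12, reached at most 0.03 TPM. All 5 Mediator tail genes rose, and 3 of the 5 polymerase subunits shared with RNA polymerases I and III fell. The difference between these parts was not tested. Median centring left 0 of 5 tail genes called, with MED16 (-0.13) and MED24 (-0.02) turning below 0. It kept the 3 shared subunits lower and added POLR2E (-0.23) and POLR2H (-0.44), where 24.2% of all tested genes were called lower. Removal of GC and length trends left 2 of 5 tail genes and 2 of 5 shared subunits called.

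**Figure D1:**
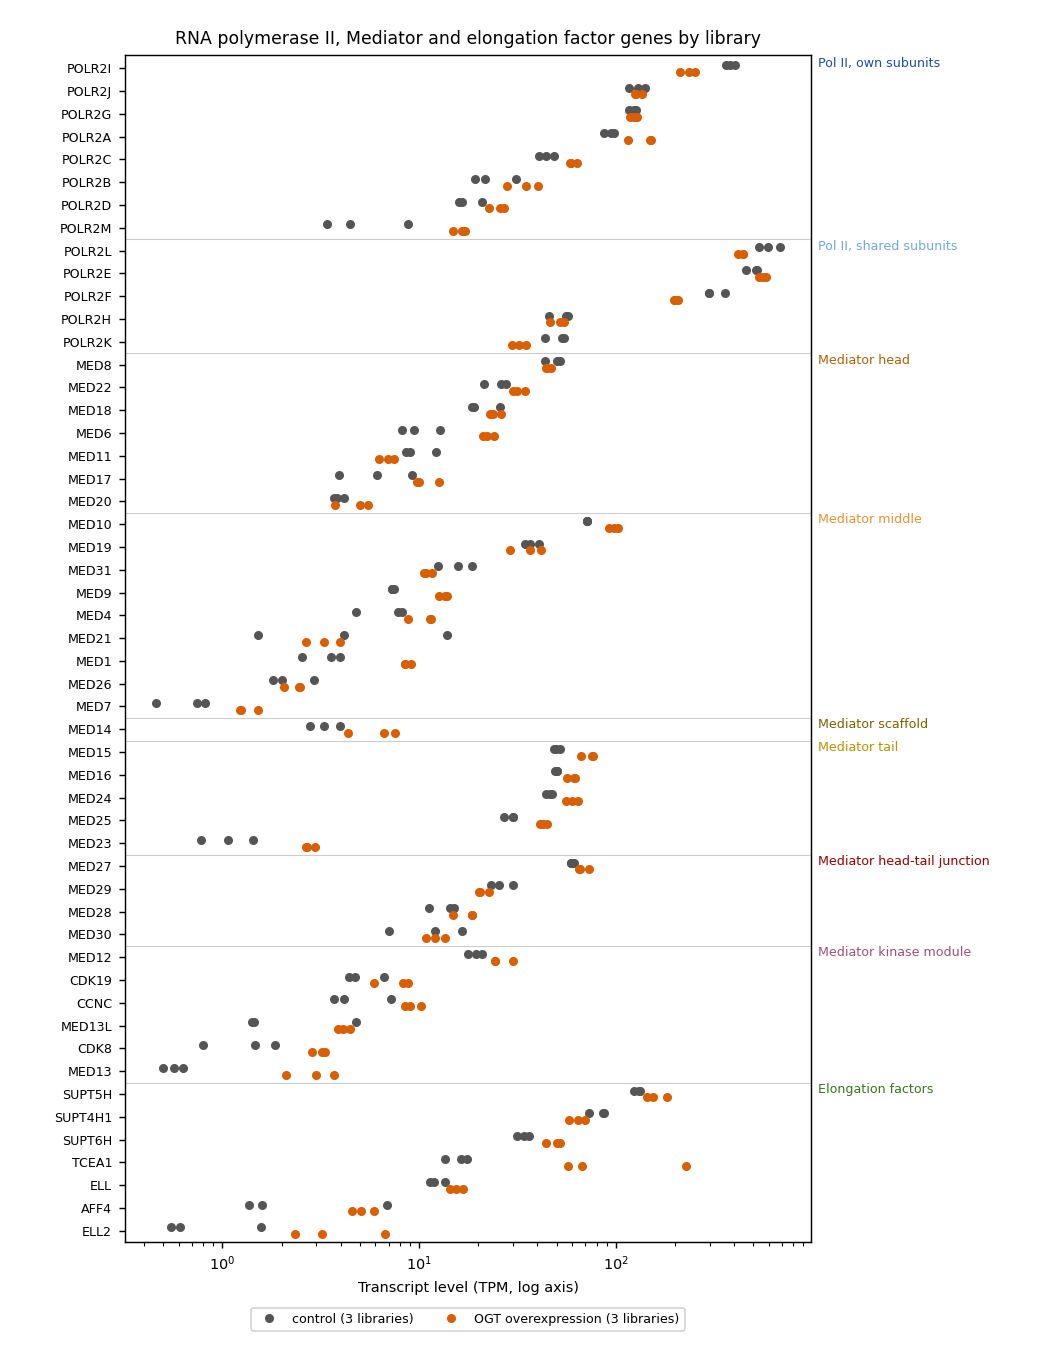
Transcript level in TPM (log axis) of 52 member genes, ordered by role and by level in control, with 1 point per library (grey control, orange OGT overexpression; MED12L, at most 0.03 TPM, is left out). The 3 OGT points lie wholly above the 3 control points for 29 genes and wholly below them for 8.

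**Figure D2:**
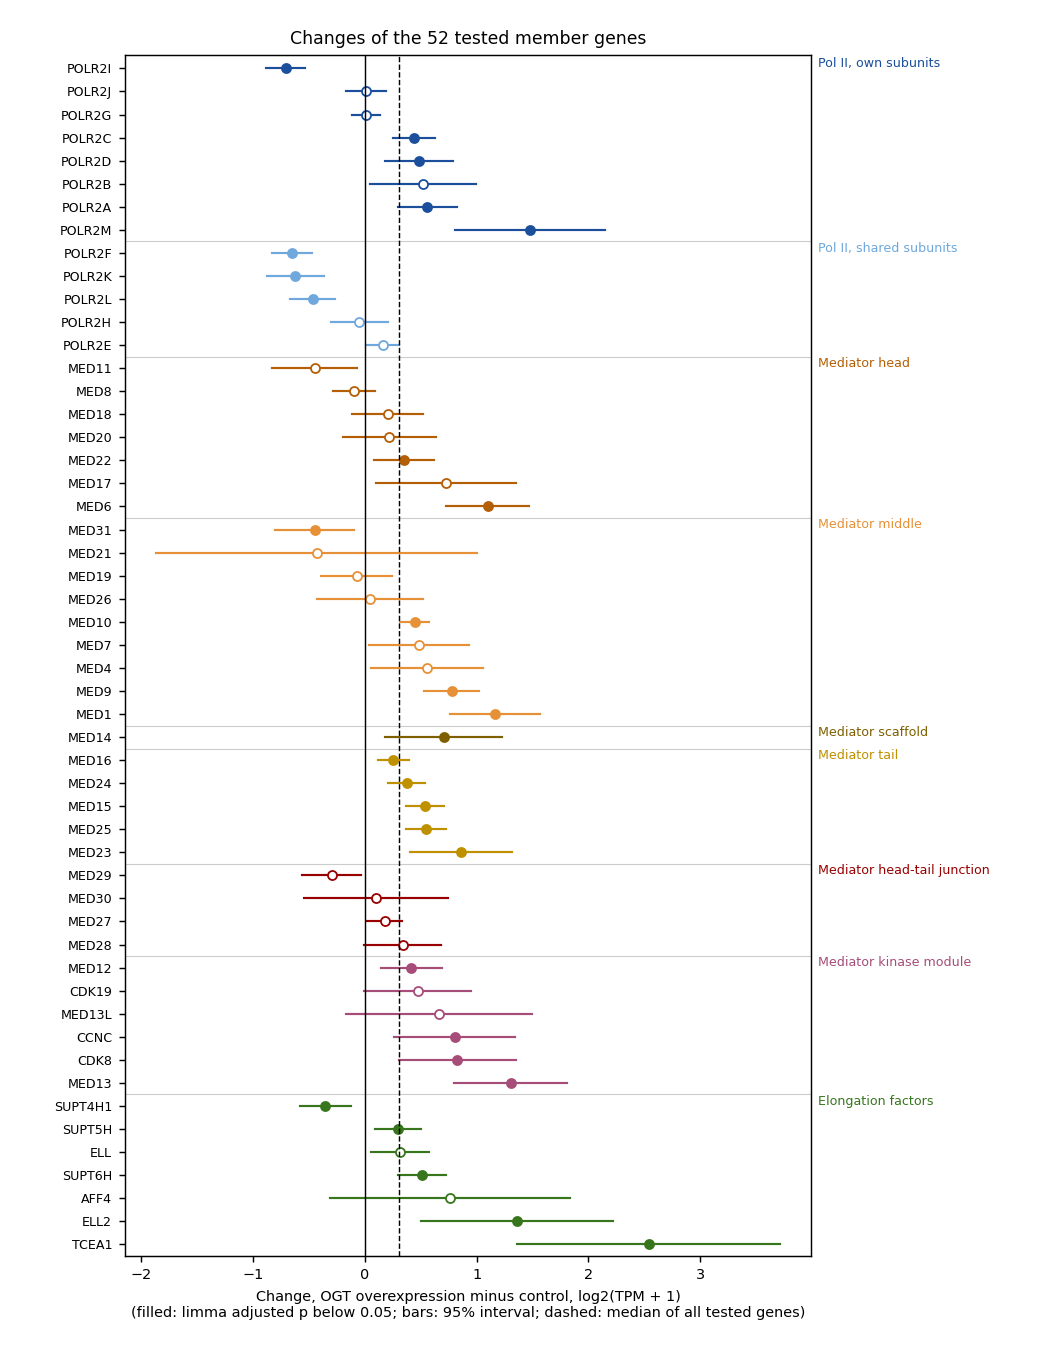
Change of each of the 52 tested genes, as log2(TPM + 1) in OGT minus control libraries, with 95% intervals from limma. Filled points passed the adjusted p threshold, the solid line marks 0 and the dashed line the median of all tested genes, 0.30. TCEA1 lies farthest to the right at 2.54 and POLR2I farthest to the left at -0.71.

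The subunits particular to RNA polymerase II split into 4 that rose, 1 that fell and 3 that were not called, where 39.1% and 9.7% of all tested genes rose and fell. Over all 13 polymerase genes 4 rose and 4 fell as deposited, 1 and 8 after median centring (15.3% and 24.2% of all genes), and 1 and 3 with GC and length trends removed (15.6% and 11.9%). POLR2A, the catalytic largest subunit (chromosome 17, 7484366 to 7514616, plus strand, GENCODE release 29 on GRCh38), was 86.77, 95.15 and 97.52 TPM in control and 151.12, 149.72 and 115.07 TPM in OGT libraries. All OGT libraries lay above all controls, with OGT replicate 3 the nearest to them. Its mean went from 93.1 ± 5.65 to 139 ± 20.4 TPM (SD, n = 3), and the log2 change was 0.56 (SE 0.112, limma adjusted p = 0.00614). After median centring it was 0.17 and not called (limma adjusted p = 0.259). POLR2C, which forms the assembly platform with POLR2J, rose from 48.47, 40.86 and 44.01 to 63.84, 58.95 and 58.64 TPM (log2 change 0.44, limma adjusted p = 0.00415). Its change was 0.049 after median centring and 0.26 with trends removed, and neither was called (limma adjusted p = 0.61 and 0.0508). POLR2M, whose product Gdown1 associates with the polymerase and blocks initiation factor binding, was 3.40, 4.46 and 8.81 TPM in control and 17.14, 14.89 and 16.53 TPM in OGT libraries. Its log2 change was 1.47 (SE 0.284, limma adjusted p = 0.00521), the largest rise among polymerase genes. POLR2M shares 1387 exonic bases with the read-through gene GCOM1 on the same strand, which reached at most 0.25 TPM.

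POLR2D, which with POLR2G forms the stalk, was 20.95, 15.90 and 16.55 TPM in control and 25.76, 27.09 and 22.60 TPM in OGT libraries (log2 change 0.48, limma adjusted p = 0.0188). Its call ended when control replicate 2 or 3, OGT replicate 1 or OGT replicate 2 was left out (adjusted p up to 0.067). POLR2G itself was 123 ± 5.28 and 124 ± 4.42 TPM, and its log2 change of 0.01 had a 95% interval from -0.11 to 0.14. The stalk genes were thus 1 called and 1 not called, and the difference between them was not tested. POLR2B, the second largest subunit and partner of POLR2A in the active centre, was 21.64, 19.24 and 31.23 TPM in control and 40.48, 35.15 and 28.17 TPM in OGT libraries. The groups overlapped through control replicate 3 and OGT replicate 3, and the log2 change of 0.52 was not called (interval 0.05 to 1.00, limma adjusted p = 0.0684). Leaving out control replicate 3 gave a call (0.72, adjusted p = 0.0152) as did leaving out OGT replicate 3 (0.66, adjusted p = 0.0473).

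POLR2I, a zinc-binding subunit that supports transcript cleavage and fidelity, fell. Its level was 380.17, 406.23 and 362.29 TPM in control and 213.39, 235.13 and 254.34 TPM in OGT libraries, with a wide gap between the groups. The log2 change was -0.71 (SE 0.0736, limma adjusted p = 4.3e-04). On the opposite strand POLR2I overlaps 417 exonic bases of TBCB and 785 of AD001527.2, whose level was not examined. The strand setting of the counting was not given in the sources used here. TBCB was not called (log2 change -0.15, limma adjusted p = 0.113). POLR2J was 129 ± 11.9 and 129 ± 6.21 TPM (log2 change 0.01, interval -0.17 to 0.19). POLR2J has near-identical copies, so its value is uncertain. POLR2J3, listed under 2 identifiers, was 30.8 ± 4.74 and 36.8 ± 0.595 TPM in the more abundant entry and 20.7 ± 5.77 and 25.4 ± 4.39 TPM in the other. POLR2J2 was 1.35 ± 1.14 and 5.38 ± 3.98 TPM with overlapping groups, and POLR2J4 was 5.38 ± 3.14 and 5.98 ± 0.864 TPM. None of these copies was called on the deposited scale.

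Among the subunits shared by all 3 nuclear RNA polymerases, 3 of 5 fell and 0 rose in limma (1, POLR2E, at an unadjusted p below 0.05), against 9.7% and 39.1% of all tested genes. With GC and length trends removed POLR2L dropped out (-0.19, limma adjusted p = 0.149), which left 2 of 5 lower. POLR2F, a small subunit that helps hold the assembled enzyme together, was 359.09, 299.59 and 299.28 TPM in control and 200.54, 208.39 and 197.44 TPM in OGT libraries. The OGT libraries lay close together and far below all controls, and the log2 change was -0.65 (SE 0.0761, limma adjusted p = 6.65e-04). POLR2K, the smallest zinc-binding subunit, fell from 54.32, 53.47 and 43.74 to 35.18, 29.68 and 32.19 TPM (log2 change -0.62, limma adjusted p = 0.00323). POLR2L, which is needed for assembly of the enzyme core, was 684.26, 593.77 and 538.19 TPM in control and 441.97, 445.64 and 418.33 TPM in OGT libraries (log2 change -0.47, limma adjusted p = 0.00397). These falls left no overlap between the groups. POLR2L overlaps 257 exonic bases of CD151 on the opposite strand, which was not called as deposited (-0.01). With trends removed CD151 was called higher (0.13, limma adjusted p = 0.0329). POLR2E lay higher in every OGT library (558.91, 532.74 and 579.53 TPM) than in any control (457.64, 522.68 and 515.17 TPM), but its log2 change of 0.16 was not called (limma adjusted p = 0.0636). POLR2H was 53.0 ± 6.45 and 51.0 ± 4.22 TPM (log2 change -0.05, interval -0.30 to 0.21). After median centring POLR2E (-0.23, limma adjusted p = 0.04995) and POLR2H (-0.44, limma adjusted p = 0.0213) were called lower.

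The summed level of the shared subunit genes was 1611.4, 1526.76 and 1441.92 TPM in control and 1282.97, 1271.06 and 1279.57 TPM in OGT libraries, without overlap. For the 8 subunits particular to the polymerase the sums were 818.57, 845.62 and 793.89 TPM against 764.47, 766.08 and 756.09 TPM. Both sums were carried by a few abundant transcripts, since polymerase genes ranged in control from 605 TPM for POLR2L to 5.56 TPM for POLR2M although most of their products occur once in each enzyme. POLR2L, POLR2E, POLR2I and POLR2F held the first 4 ranks of the 53 genes in control. In OGT libraries POLR2E passed POLR2L, and these same 4 still led.

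Mediator genes stood lower than polymerase genes, with sums of 598.77, 595.46 and 611.73 TPM over the 33 genes in control and 753.64, 745.86 and 742.34 TPM in OGT libraries. Of 32 tested, 15 rose and 1 fell, against the 39.1% and 9.7% of all tested genes. After median centring 4 rose and 5 fell (15.3% and 24.2% of all genes). After GC and length trends were removed 6 rose and 3 fell (15.6% and 11.9% of all genes). The tail, which receives signals from activators, had 5 of 5 genes higher. MED15, contacted by SREBP and SMAD activators, was 49.58, 51.92 and 48.58 TPM in control and 76.09, 76.91 and 66.57 TPM in OGT libraries (log2 change 0.54, SE 0.0735, limma adjusted p = 0.00125). MED25, which binds the activator VP16, rose from 29.92, 26.90 and 29.98 to 42.70, 44.55 and 41.00 TPM (log2 change 0.55, limma adjusted p = 0.00125). MED23, a partner of ELK1 and E1A, was 0.78, 1.07 and 1.43 TPM in control and 2.95, 2.70 and 2.67 TPM in OGT libraries, the lowest level and the largest log2 change of the tail (0.86, limma adjusted p = 0.00943). With fewer than 3 controls at 1 TPM, MED23 needed OGT libraries to pass the filter. MED24 and MED16, also tail subunits, had log2 changes of 0.37 and 0.26 (limma adjusted p = 0.00486 and 0.0117). For each of these 5 genes every OGT library lay above every control.

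Of 7 head genes 2 rose and 0 fell in limma, against 39.1% and 9.7% of all tested genes. MED11 was the 1 gene lower at an unadjusted p below 0.05. MED6, a conserved head subunit next to the middle module, was 9.41, 12.71 and 8.19 TPM in control and 22.06, 21.20 and 24.11 TPM in OGT libraries. Its OGT values were all well above the controls, and the log2 change was 1.10 (SE 0.159, limma adjusted p = 0.00158). MED22 was 21.29, 26.17 and 27.82 TPM in control and 31.51, 34.64 and 30.21 TPM in OGT libraries (log2 change 0.35, limma adjusted p = 0.0403). This call ended when control replicate 1 or 2 or any 1 OGT replicate was left out (adjusted p up to 0.126). MED17, the central head subunit, was 3.94, 6.13 and 9.23 TPM and 12.62, 10.03 and 9.81 TPM, without overlap but not called (log2 change 0.72, limma adjusted p = 0.0587), and was called without control replicate 3 (0.99, adjusted p = 0.0134), while without control replicate 1 it was 0.46. MED11 was lower in every OGT library, 9.89 ± 1.97 against 6.91 ± 0.607 TPM, and not called (-0.45, limma adjusted p = 0.0534). MED8, MED18 and MED20 overlapped between the groups, with log2 changes of -0.10, 0.20 and 0.22. Leaving out 1 library moved MED18 between 0.12 (without control replicate 2) and 0.35 (without control replicate 3, when it was called with adjusted p = 0.0316).

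Of 9 middle genes 3 rose and 1 fell, against 39.1% and 9.7% of all tested genes. MED1, the subunit that binds nuclear receptors, was 3.57, 2.55 and 3.98 TPM in control and 8.44, 9.10 and 8.51 TPM in OGT libraries. The groups were far apart and the log2 change was 1.16 (SE 0.169, limma adjusted p = 0.00165). MED9 rose from 7.49, 7.30 and 7.28 to 13.56, 12.57 and 13.82 TPM (log2 change 0.78, limma adjusted p = 0.00112). MED10 rose from 71.05, 71.45 and 71.80 to 98.38, 92.21 and 102.29 TPM (log2 change 0.44, limma adjusted p = 8.77e-04; 0.055 and not called after median centring) and was the most abundant Mediator transcript in both groups. MED31, a small conserved subunit, was 18.67, 12.48 and 15.73 TPM in control and 10.87, 10.58 and 11.64 TPM in OGT libraries (log2 change -0.45, limma adjusted p = 0.0435). Its call was lost without control replicate 1 or 3 or without any 1 of the OGT replicates (adjusted p up to 0.1145). MED31 overlaps 1227 exonic bases of TXNDC17 on the opposite strand, a gene that was not called as deposited (-0.16). With GC and length trends removed TXNDC17 was called lower (-0.63, limma adjusted p = 0.0467), as was MED31 (-0.87). Whether the 2 are linked was not tested.

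Other middle genes were not called. MED21, which pairs with MED7 in a hinge of the middle module, was 13.84, 4.14 and 1.51 TPM in control, the widest spread of any member there relative to its mean apart from MED12L, and 3.97, 2.67 and 3.27 TPM in OGT libraries. Its log2 change of -0.43 had an interval from -1.87 to 1.00 and was 0.25 without control replicate 1. MED7 was 0.46, 0.82 and 0.74 TPM in control and 1.23, 1.25 and 1.51 TPM in OGT libraries (0.48, limma adjusted p = 0.0731). MED4 was 6.96 ± 1.89 and 10.54 ± 1.47 TPM (0.56, limma adjusted p = 0.065). MED19 was 37.3 ± 3.2 and 35.7 ± 6.23 TPM and MED26, which docks elongation factors of the AFF4 and ELL family, was 2.25 ± 0.605 and 2.33 ± 0.231 TPM.

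The scaffold gene MED14 was 3.95, 2.79 and 3.29 TPM in control and 6.61, 7.55 and 4.37 TPM in OGT libraries (log2 change 0.71, limma adjusted p = 0.0341). The groups did not overlap, but the call ended when control replicate 2 or 3, OGT replicate 1 or OGT replicate 2 was left out (adjusted p up to 0.117). The 4 genes at the junction of head and tail, MED27 to MED30, gave 0 calls by limma, where 39.1% and 9.7% of all tested genes rose and fell. At an unadjusted limma p below 0.05, MED27 lay higher and MED29 lower. MED27 was 59.25, 59.09 and 61.49 TPM against 64.87, 65.60 and 73.49 TPM, and MED29 was 25.50, 29.99 and 23.17 TPM against 20.29, 22.59 and 20.32 TPM. MED29 was called lower without control replicate 3 (-0.38, adjusted p = 0.0368). MED28 (0.34) and MED30 (0.10) overlapped between the groups.

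In the kinase module, which binds Mediator reversibly and keeps the polymerase away while bound, 4 of 6 tested genes rose and 0 fell in limma (0 also at an unadjusted p below 0.05). Of all tested genes 39.1% rose and 9.7% fell. MED13 passed the filter on low values only through the OGT libraries, where it was high, and without it 3 of 5 rose. Those 3, CDK8, CCNC and MED12, were not called after median centring or after removal of GC and length trends. CDK8 also needed OGT libraries to pass the filter, with fewer than 3 controls at 1 TPM. MED13, which links the kinase to Mediator, was 0.50, 0.57 and 0.63 TPM in control and 2.10, 2.98 and 3.68 TPM in OGT libraries. Every OGT library was over the highest control by a wide margin, and the log2 change was 1.30 (SE 0.213, limma adjusted p = 0.0026). CDK8, the kinase, was 1.46, 0.80 and 1.85 TPM in control and 2.87, 3.31 and 3.22 TPM in OGT libraries (0.83, limma adjusted p = 0.0193), and lost its call without OGT replicate 2 or 3 (adjusted p up to 0.0615). Cyclin C, encoded by CCNC, was 7.24, 3.68 and 4.14 TPM in control and 8.95, 8.45 and 10.19 TPM in OGT libraries (0.80, limma adjusted p = 0.025). Leaving out control replicate 2 or 3, or any 1 OGT replicate, ended this call (adjusted p up to 0.0754). MED12, the activator of the kinase, was 19.52, 17.69 and 20.88 TPM against 24.22, 30.14 and 24.37 TPM (0.42, limma adjusted p = 0.0218), a call that ended when replicate 2 of either group was left out (adjusted p up to 0.0675).

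Vertebrates have alternative copies of kinase module subunits. CDK19 was 6.62, 4.71 and 4.43 TPM in control and 8.82, 8.26 and 5.93 TPM in OGT libraries, the more abundant of the kinase pair in every library. It overlapped between the groups through control replicate 1 and OGT replicate 3 and was not called (0.47, limma adjusted p = 0.0947), but was called without either (adjusted p = 0.0447 and 0.0475, log2 changes 0.62 and 0.63). MED13L was 4.78, 1.41 and 1.45 TPM in control and 4.48, 3.88 and 4.09 TPM in OGT libraries (0.67, limma adjusted p = 0.16). Without control replicate 1 it was called (1.08, adjusted p = 0.00521). The log2 ratio of CDK19 to CDK8, each taken as TPM + 1, was 1.63, 1.665 and 0.93 in control and 1.34, 1.10 and 0.72 in OGT libraries. Adding 1 understates ratios between genes this low. The ratio changed by -0.35 (two-sided exact permutation p = 0.3, adjusted p = 0.3 over the 2 pairs that gave a ratio). The log2 ratio of MED13L to MED13, taken the same way, was 1.95, 0.62 and 0.59 in control and 0.82, 0.29 and 0.12 in OGT libraries. Its change was -0.64 (two-sided exact permutation p = 0.3, adjusted p = 0.3). With 3 against 3 libraries this test cannot go below 0.1, and without control replicate 1 the latter change was -0.19. With a pseudocount of 0.1 in place of 1, the MED13L to MED13 change was -1.235 (two-sided exact permutation p = 0.1, not adjusted). The CDK19 to CDK8 change was then -0.67 (two-sided exact permutation p = 0.3, not adjusted). MED12L gave no ratio, since it stayed below 1 TPM.

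Of the 7 elongation factor genes 4 rose and 1 fell, against 39.1% and 9.7% of all tested genes. After median centring (15.3% and 24.2%) as well as after removal of GC and length trends (15.6% and 11.9%), TCEA1 rose and SUPT4H1 fell, and the other 5 were not called. TCEA1, which encodes TFIIS, the factor that rescues backtracked polymerase by stimulating transcript cleavage (chromosome 8, 53966552 to 54022529, minus strand), had the largest change of all 52 tested members. It was 13.50, 16.34 and 17.59 TPM in control and 67.71, 227.84 and 57.42 TPM in OGT libraries. OGT replicate 2 stood far above the other OGT libraries, and all 3 stood far above the controls. The log2 change was 2.54 (SE 0.492, limma adjusted p = 0.00598) and 1.92 without OGT replicate 2 (adjusted p = 9.14e-04). TCEA1 has 4 pseudogenes named after it in GENCODE release 29, and how reads they share were assigned was not given in the sources used here.

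ELL2, a subunit of the super elongation complex, was 0.61, 0.55 and 1.58 TPM in control and 3.23, 6.71 and 2.33 TPM in OGT libraries (log2 change 1.36, SE 0.364, limma adjusted p = 0.0194). OGT replicate 2 was again the highest library, and the call was lost without control replicate 1 or 2 (adjusted p up to 0.0594). ELL2 also needed OGT libraries to pass the filter, with fewer than 3 controls at 1 TPM. Its relative ELL was 11.91, 13.55 and 11.38 TPM against 16.80, 15.39 and 14.32 TPM, without overlap and not called (0.31, limma adjusted p = 0.0526), and was called without control replicate 2 (0.38, adjusted p = 0.0482). AFF4, the scaffold of that complex, was 6.87, 1.59 and 1.36 TPM in control and 5.90, 5.07 and 4.58 TPM in OGT libraries (0.76, limma adjusted p = 0.207). Without control replicate 1 its change was 1.32 and called (adjusted p = 0.00322). Control replicate 1, which also held 12.23 TPM of PTPRC, was thus the highest of all 6 libraries for AFF4, MED13L and MED21. Whether the PTPRC signal and these values are linked was not tested. Over the whole table, control replicate 1 correlated at 0.9772 and 0.9756 with control replicates 2 and 3 (Pearson, log2(TPM + 1)). Control replicates 2 and 3 correlated at 0.9819 with each other, and the OGT libraries at 0.9753, 0.9755 and 0.9723 with control replicate 2. Leaving out control replicate 1 gave 24 members higher and 4 lower.

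The histone chaperone and elongation factor gene SUPT6H rose from 31.37, 34.15 and 36.35 to 50.27, 51.98 and 44.06 TPM (log2 change 0.51, limma adjusted p = 0.00372), a call lost after median centring (0.12) and with trends removed (0.15). DSIF, which imposes and then relieves promoter-proximal pausing, is a dimer of the products of SUPT5H and SUPT4H1, and their transcripts moved in opposite directions. SUPT5H was 131.90, 132.57 and 124.02 TPM in control and 181.22, 153.88 and 144.32 TPM in OGT libraries (0.30, limma adjusted p = 0.0266). SUPT4H1 was 87.15, 73.13 and 86.11 TPM in control and 64.42, 69.83 and 57.88 TPM in OGT libraries (-0.35, limma adjusted p = 0.021). Neither pair of groups overlapped. For SUPT5H the call ended when control replicate 2 or 3 or OGT replicate 2 was left out (adjusted p up to 0.0759) and the change was -0.09 after median centring. For SUPT4H1 it ended when replicate 1 or 3 of either group was left out (adjusted p up to 0.0625). SUPT4H1 shares 1325 exonic bases with AC004687.2 on the same strand. It shares 577 with TSPOAP1-AS1 on the opposite strand, which reached at most 0.31 TPM.

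Other genes of the transcription apparatus were counted for comparison, against 39.1% higher and 9.7% lower among all tested genes. From each list the 2 genes with the smallest p are named, which are not always those with the largest change. General transcription factors had 9 of 19 higher, with TBPL1, a TBP relative, at 4.54 ± 1.37 and 14.7 ± 0.709 TPM (log2 change 1.53) and the TFIIH helicase gene ERCC3 at 24.95 ± 1.052 and 37.9 ± 2.77 TPM (0.58). TAF subunits of TFIID had 8 of 13 higher, among them TAF13 (0.88) and TAF9 (0.89). Subunits particular to RNA polymerases I and III had 8 of 18 higher and 1 lower, with POLR1G (0.54) and POLR3C (0.42) among the former. The NELF and PAF1 complexes had 6 of 10 higher and 1 lower: the PAF1 subunit gene CTR9 rose (1.11) and the NELF subunit gene NELFE fell from 236 ± 18.1 to 144 ± 5.45 TPM (-0.71). Of 11 further elongation factors 7 rose and 1 fell, and the gene that fell was TCEA2, the tissue-restricted relative of TCEA1, from 52.3 ± 4.78 to 28.6 ± 1.08 TPM (-0.84, limma adjusted p = 3.67e-04). SUPT16H, a subunit of the FACT chaperone, rose (1.31). Integrator had 4 of 13 higher and 1 lower, with INTS14 (0.99) and INTS3 (0.57) among the former. These counts changed with the scaling, as did those of all tested genes, of which 20.2% rose and 17.8% fell after quantile normalization. The shares were 15.3% and 24.2% after median centring, and 15.6% and 11.9% after trend removal. After quantile normalization, median centring and trend removal, in that order, general transcription factors had 5, 5 and 4 higher and 2, 3 and 2 lower, and TAF subunits 7, 6 and 4 higher and 1, 1 and 1 lower. Polymerase I and III subunits had 0 higher in each by limma and 4, 4 and 2 lower, and the NELF and PAF1 complexes had 1, 2 and 0 higher and 1, 3 and 1 lower. The further elongation factors had 5, 3 and 5 higher and 1, 1 and 1 lower, and Integrator 2, 1 and 2 higher and 2, 2 and 2 lower.

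The changes of the members followed the GC content and length of their reference transcripts, taken from GENCODE release 29. Across the 52 genes, which are not independent and share the same 6 libraries, the Spearman correlation of the log2 change was -0.47 with GC content and 0.63 with length. It was -0.47 and 0.39 across 12348 tested genes with a reference transcript. The 17 members up to 2000 bases long had a median log2 change of -0.07, with 2 higher and 5 lower, where 19.9% and 22.4% of all tested genes of that length were called. The 18 members between 2000 and 4000 bases had a median of 0.46, with 11 higher and 1 lower (41.1% and 7.44% of all). The 17 members over 4000 bases had a median of 0.67, with 10 higher and 0 lower in limma (0 also at an unadjusted p below 0.05; 53.6% and 2.25% of all). All tested genes in these length classes had medians of 0.0034, 0.29 and 0.56. By GC content, medians were 0.69 for the 20 members at up to 45%, 0.28 for the 18 between 45% and 55%, and 0.21 for the 14 above 55%, against 0.70, 0.33 and 0.05 for all tested genes. Of the polymerase subunits that fell, POLR2L had a reference transcript of 892 bases, POLR2I of 913, POLR2K of 998 and POLR2F of 2106. POLR2G (827 bases) and POLR2J (932 bases) were as short and had changes of 0.01. POLR2K had the lowest GC content of all members (36.6%), followed by MED4 (36.7%). The change also fell with the level in control (Spearman -0.60 across the 52 genes and -0.33 across 12348). The control values enter both quantities, so part of a negative correlation is built in. With GC and length trends removed from the change, the correlations were -0.14 and -0.115.

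**Figure D3:**
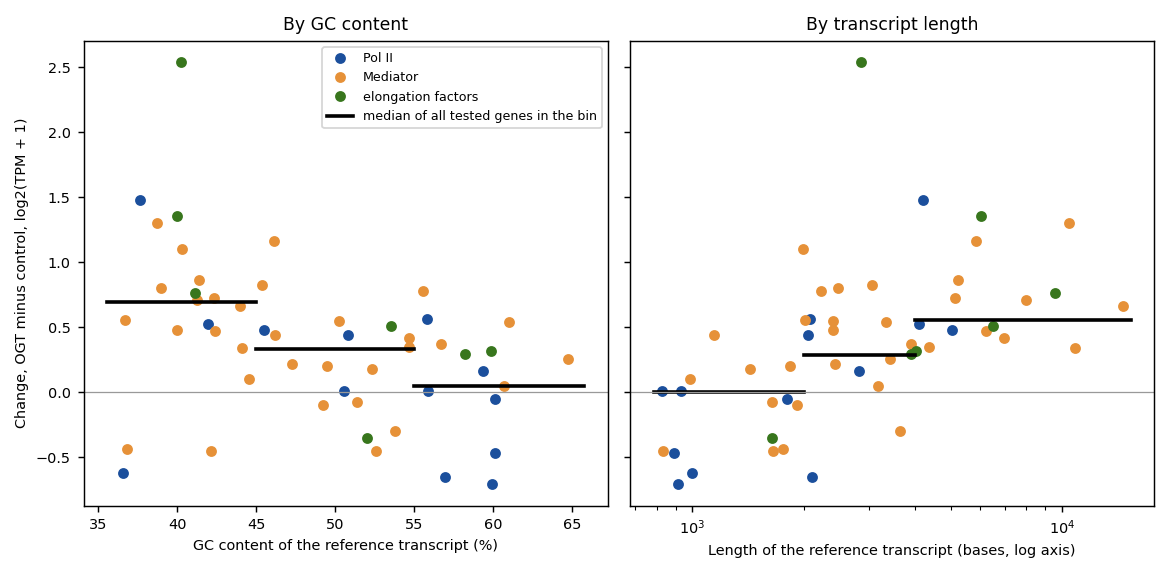
Change of the 52 tested genes (log2(TPM + 1), OGT minus control) against GC content (left) and length on a log axis (right) of the reference transcript, coloured by family. Black bars are medians of all tested genes in 3 classes of each property, from 0.70 at up to 45% GC to 0.05 above 55%, and from 0.0034 up to 2000 bases to 0.56 above 4000.

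With the GC and length trends of each library removed, 8 of 52 members rose and 7 fell, against 15.6% and 11.9% of all genes tested that way. Those higher were TCEA1 (1.91), MED9 (0.72), MED6 (0.60), POLR2A (0.53), MED1 (0.52), MED15 (0.42), MED25 (0.29) and MED10 (0.25). Those lower were POLR2K (-0.90), MED31 (-0.87), POLR2F (-0.66), MED29 (-0.57), POLR2I (-0.44), SUPT4H1 (-0.41) and MED8 (-0.32). The value of POLR2A rests on its reference transcript: the annotation types a 2083-base model as protein coding and the 6751-base full-length one as a processed transcript. With the full-length transcript the corrected change of POLR2A was 0.27 and not called (limma adjusted p = 0.0669). After quantile normalization 12 members rose and 9 fell, against 20.2% and 17.8% of all genes. After centring on the median 6 rose and 14 fell, against 15.3% and 24.2%. POLR2E (-0.23), POLR2G (-0.38) and POLR2J (-0.38), not called as deposited, were among those 14. The genes called in the same direction as deposited in all 13 alternatives planned were TCEA1, MED1, MED6 and MED9, which rose, and POLR2F, POLR2I and POLR2K, which fell. MED13 was lost after trend removal alone (0.55, limma adjusted p = 0.0774), as were POLR2M (0.75, adjusted p = 0.104) and POLR2L (-0.19, adjusted p = 0.149).

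**Figure D4:**
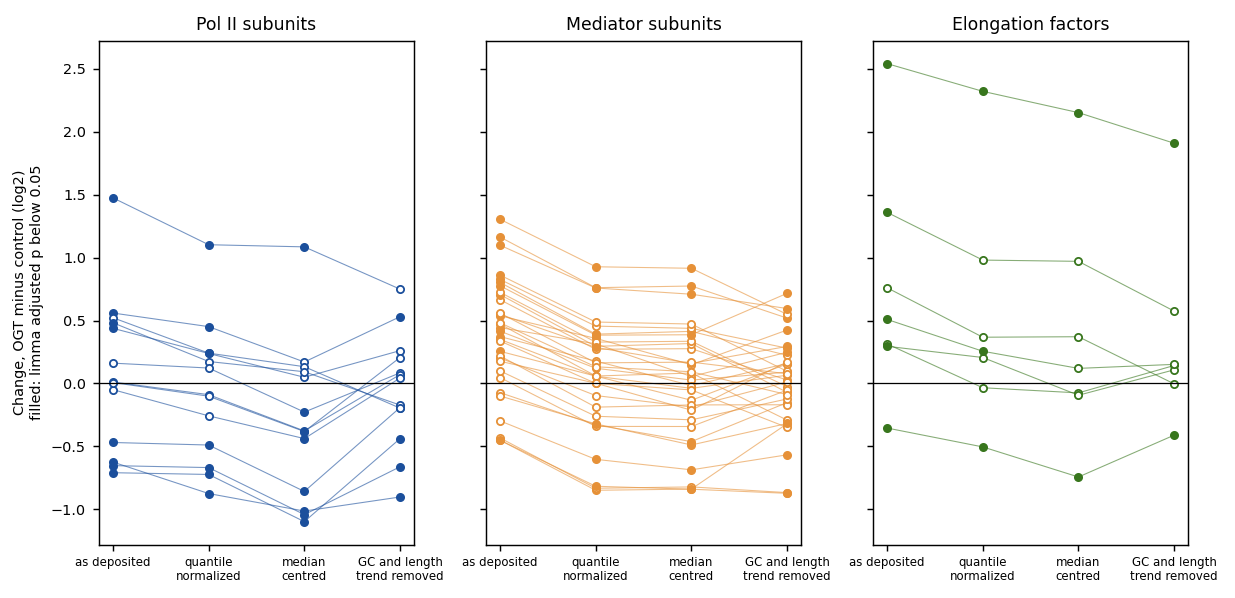
Change of each tested gene (log2, OGT minus control) as deposited, after quantile normalization, after median centring and with GC and length trends removed, in 1 panel per family, with lines joining a gene's values and filled points passing the adjusted p threshold. TCEA1 stays between 1.91 and 2.54, while most Mediator genes move toward 0.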

How the data were processed

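The authors deposited 1 table of TPM values, genes by 6 libraries, for total RNA from 786-O cells (3 control, 3 OGT overexpressing, per the labels). Per the submitters' processing notes, the builds were GRCm38 and mm10, which are mouse, but all 62703 identifiers are human. The aligner, counter and strand setting were not given in the sources used here. TPM keeps no depth, so counting precision is unknown.

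From the deposited TPM, log2(TPM + 1) was tested with limma 3.58.1 (R 4.3.3, trended robust empirical Bayes, no covariate) over the 12645 genes at 1 TPM or more in at least 3 libraries, with Benjamini-Hochberg adjustment over all of them and a threshold of 0.05. Fold changes are on the log2(TPM + 1) scale, which understates the change of low genes. Paralog ratios, also on TPM + 1, used a two-sided exact permutation test (scipy 1.17.1). All members and, from each comparison list, the 2 tested genes with the smallest p were named. Members and lists were chosen with earlier results of these data known. Alternatives were a pseudocount of 0.1, no filter, a mean of at least 5 TPM, quantile normalization, median centring, GC and length trends removed per library by splines of 4 degrees of freedom (12348 genes with a GENCODE release 29 reference transcript), a replicate block and leaving out each library. The full-length POLR2A transcript was added after seeing the data. On simulated data over 12645 genes, 23% of log2 changes of 0.5 and 61% of those of 1 were recovered beside 3 false calls. Far fewer genes were changed in the simulation than were called in the real data, which makes the adjustment stricter there. These shares therefore do not give the sensitivity of the calls reported here. A linear GC trend without a length trend, simulated over 12348 genes, gave 2143 false calls, and 3 once it was removed. The splines can fit a linear trend by design, so this does not test removal of the trends in the real data.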

Additional observations from a re-analysis of the deposited data

How the results depend on the processing

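Among the members called as deposited, 4 of 23 higher and 3 of 6 lower genes were called in the same direction under every setting listed in the processing account, and 15 of 23 and 4 of 6 whenever any 1 library was left out. Where a value changed, the cause was not tested. The depth behind each TPM value is unknown. The reference transcripts for GC content and length may not be those expressed.

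Counts of members (higher and lower) were 12 and 9 after quantile normalization, 6 and 14 after median centring, 8 and 7 with GC and length trends removed, 17 and 4 without a filter and 20 and 7 with a required mean of 5 TPM. In that order, polymerase subunits had 3 and 4, 1 and 8, 1 and 3, 4 and 4, and 4 and 4. Mediator subunits had 7 and 4, 4 and 5, 6 and 3, 11 and 0, and 12 and 2. Elongation factors had 2 and 1, 1 and 1, 1 and 1, 2 and 0, and 4 and 1. Of all tested genes 20.2% and 17.8% were called higher and lower after quantile normalization. The shares were 15.3% and 24.2% after median centring, and 15.6% and 11.9% with trends removed. The median change of the members was 0.1276 after quantile normalization, 0.0053 after median centring, 0.068 with trends removed, 0.37 without a filter, 0.34 with the mean filter and 0.41 with a pseudocount of 0.1. Leaving out 1 library gave 16 to 24 members higher and 4 to 6 lower, 3 to 5 and 4 to 4 polymerase subunits, 10 to 16 and 0 to 1 Mediator subunits, 3 to 4 and 0 to 1 elongation factors, and medians from 0.3443 to 0.4244. The CDK19 to CDK8 ratio change ranged from -0.5942 to -0.1855 and was -0.6666 with a pseudocount of 0.1, and the MED13L to MED13 ratio change ranged from -0.8698 to -0.1907 and was -1.235.

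The labels do not say whether same-numbered libraries were handled as pairs. Same-numbered libraries' deviations from their group means correlated at -0.0194, 0.0026 and 0.0166, and 1 of 6 libraries matched its own number best. These values show no shared shift by replicate number but cannot tell how the samples were handled. With a replicate block 21 members rose and 4 fell, with 4 and 4 polymerase, 13 and 0 Mediator and 4 and 0 elongation genes, and a median of 0.39. MED12, MED14, MED22, MED31 and SUPT4H1 were no longer called (limma adjusted p from 0.0523 to 0.0583) and MED4 was (0.0327).

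The sign turned after quantile normalization for ELL (-0.034), MED18 (-0.096), MED20 (-0.19), MED26 (-0.34), MED30 (-0.26), POLR2G (-0.089) and POLR2J (-0.10). It turned after median centring for ELL (-0.075), MED16 (-0.13), MED18 (-0.19), MED20 (-0.17), MED22 (-0.038), MED24 (-0.016), MED26 (-0.34), MED27 (-0.21), MED28 (-0.051), MED30 (-0.29), POLR2E (-0.23), POLR2G (-0.38), POLR2J (-0.38) and SUPT5H (-0.093). It turned with trends removed for AFF4 (-0.0029), CDK19 (-0.29), MED14 (-0.070), MED17 (-0.025), MED20 (-0.17), MED26 (-0.053), MED28 (-0.35), MED30 (-0.12), MED7 (-0.088), POLR2B (-0.20), POLR2D (-0.17) and POLR2H (0.043). Over the left-out libraries, changes spanned 0 for MED19 (-0.19 to 0.063), MED21 (-1.03 to 0.25), MED26 (-0.050 to 0.19), MED30 (-0.20 to 0.36), POLR2G (-0.021 to 0.040), POLR2H (-0.15 to 0.017) and POLR2J (-0.063 to 0.070).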
